A study of Mus musculus with 19 samples.

Results

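Transcripts of p53 and of 9 genes that it is known to act on were followed in embryonic stem cells of the mouse, with and without Trim71 and Lin28a. The 10 genes (Trp53, Mdm2, Ccng1, Bax, Bbc3, Phlda3, Trp53inp1, Zmat3, Sesn2 and Eda2r) were taken by symbol from the 21685 genes of the deposited table, and all 10 were among the 14988 genes tested. Trim71 is an RNA-binding ubiquitin ligase, and Lin28a binds the precursors of let-7 microRNAs and prevents their maturation. Genotypes are written with Trim71 first. WT-WT cells were Trimfl/fl and Lin28afl/fl (n = 4), KO-WT cells were Trim-/- and Lin28afl/fl (n = 4 used), WT-KO cells were Trimfl/fl and Lin28a-/- (n = 5), and KO-KO cells were Trim-/- and Lin28a-/- (n = 5).

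All cells were male C57BL/6 mES cells grown with FCS and LIF and sorted with magnetic beads for the stem cell antigen SSEA-1. Trim71 deletion was induced in floxed cells by 4-OHT (4-hydroxytamoxifen), and the labels do not say whether the Trim71-intact cells also received it. Lin28a-intact cells came from clones 1 and E3 and Lin28a-null cells from clones 1-4 and C1, so Lin28a genotype and clone cannot be told apart. Libraries of 1 clone were collected on different days, and p-values measure the spread between these libraries only. Values are deposited log2 expression of unknown depth, and all adjusted p-values below come from limma with a term for day, adjusted over all 14988 genes. A gene is called where its adjusted p is under 0.05.

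The p53 protein, encoded by Trp53, is a transcription factor that is kept scarce by Mdm2, a ubiquitin ligase that marks it for destruction. Mdm2 is itself a p53 target, which closes a feedback loop. When p53 accumulates it raises transcripts for cell cycle arrest, cell death, repair and metabolic control. Most control of p53 acts on the protein, which was not measured here. Mouse embryonic stem cells are known to hold abundant p53.

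The p53 tetramer binds pairs of a degenerate decamer, called here the p53 consensus decamer, which reads the same on both strands. In RefSeq promoter windows (GRCm38.p6, 250 bases before to 50 after the start site), 8 of the 10 genes were listed. Trp53inp1 and Zmat3 had no entry. An exact decamer was found in 4 of the 8 genes, as against 9.55% of all 27025 genes with a window and 8.29% of the tested genes with one. The matching stretches of these 4 genes are shown. Each is 50 bases, 5′ to 3′ on the gene's strand, with the decamer in capitals:
Trp53, chr11:69580264-69580313, plus strand: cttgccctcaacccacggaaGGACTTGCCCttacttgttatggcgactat
Mdm2, chr10:117710915-117710964, minus strand: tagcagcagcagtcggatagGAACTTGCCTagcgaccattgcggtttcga
Ccng1, chr11:40755442-40755491, minus strand: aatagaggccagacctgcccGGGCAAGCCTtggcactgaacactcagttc
Bax, chr7:45467070-45467119, minus strand: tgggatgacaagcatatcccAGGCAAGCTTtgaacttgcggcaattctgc
Counted from the start site, the decamers began at base -75 (Trp53), -186 (Mdm2), -185 (Ccng1) and -201 (Bax). In Ccng1 the bases just before the capitals completed a tandem pair of decamers, with 1 mismatch over 20 bases. A tandem pair with at most 1 mismatch was present in 0.107% of all genes with a window. That second search was added after the first had been read. The windows of Bbc3, Phlda3, Sesn2 and Eda2r held no exact decamer in these 300 bases, and a match is a run of letters rather than a measured binding site.

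The labels were checked on the targeted transcripts. Trim71 ranged from 8.77 to 9.55 in Trim71-null libraries and from 10.04 to 11.00 in the others, and Lin28a from 8.21 to 8.57 in Lin28a-null libraries and from 9.74 to 10.26 in the others. All 7 stem cell markers were present, with Pou5f1 between 12.55 and 12.93 and Nanog between 12.12 and 13.36. Markers of other cell types moved with the Lin28a state and are given beside those results. The fifth KO-WT library, alone on its day, held no values of its own after the day effects had been removed, and was left out.

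**Figure D1:**
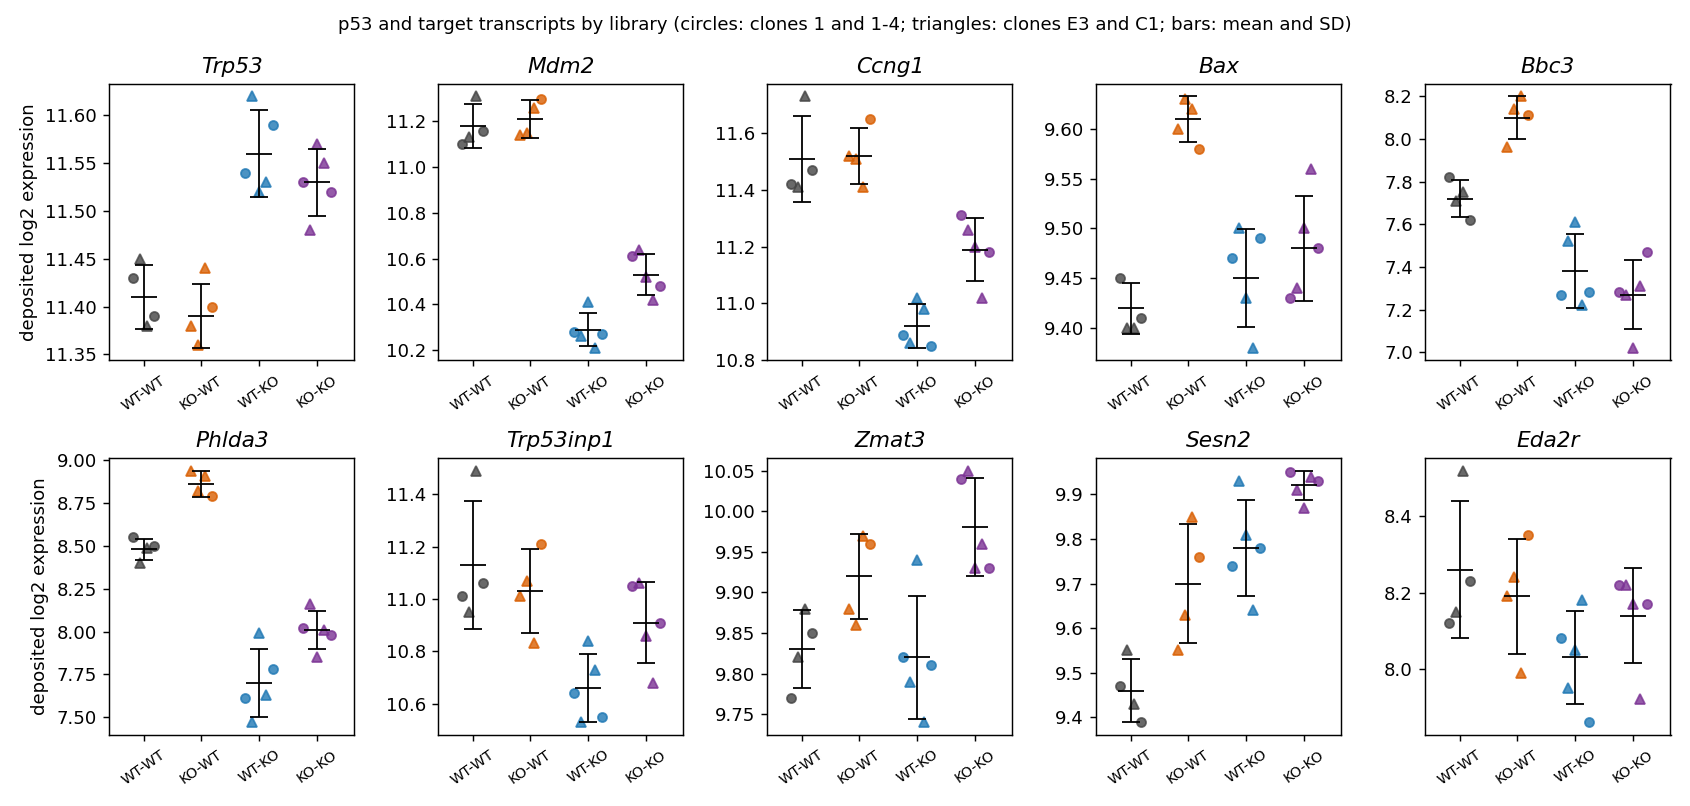
Deposited log2 expression (y axis) of the 10 genes in each library, grouped by genotype (x axis, Trim71 state first); each point is 1 library, and bars give the mean and SD. Mdm2 and Phlda3 lie lower in every Lin28a-null library than in every Lin28a-intact library, and Sesn2 has its highest mean in KO-KO cells.

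Trp53 mRNA differed little between genotypes. Its log2 values were 11.43, 11.45, 11.38 and 11.39 in WT-WT libraries and 11.38, 11.36, 11.44 and 11.40 in KO-WT libraries. They were 11.54, 11.62, 11.52, 11.53 and 11.59 in WT-KO libraries and 11.53, 11.48, 11.57, 11.55 and 11.52 in KO-KO libraries. Every Lin28a-null library was above every Lin28a-intact library, while the Trim71 states overlapped. Trim71 loss moved Trp53 by -0.02 ± 0.0416 (SE, log2, adjusted p = 0.82) with Lin28a intact and by -0.03 ± 0.0356 (adjusted p = 0.647) in Lin28a-null cells. The 95% intervals of these differences were -0.10 to 0.07 and -0.11 to 0.04. Where Trim71 was intact, Lin28a loss raised Trp53 by 0.15 ± 0.0385 (1.11-fold, adjusted p = 0.00548). In Trim71-null cells the rise was 0.13 ± 0.0385 (1.10-fold, adjusted p = 0.0106). Both increases held in 4 of 4 same-day pairs. In clones E3 and C1 alone they kept their size, at 0.14 each, without passing the test (adjusted p = 0.2 and 0.132). In clones 1 and 1-4 alone the increase in Trim71-null cells was 0.13 (adjusted p = 0.149).

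The genes whose level ran most like that of Trp53 were Nrde2, Dnajc11 and Atic. Their Pearson correlations with Trp53 were 0.901, 0.870 and 0.848 over the 8 Lin28a-intact libraries and 0.893, 0.896 and 0.873 over the 10 Lin28a-null libraries. These libraries share days from which a common effect had been removed, and the genes were picked as the top of all tested genes.

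Mdm2 showed the largest absolute change of the 10 genes under Lin28a loss with Trim71 intact. Its log2 values were 11.10, 11.13, 11.31 and 11.16 in WT-WT, and 11.14, 11.15, 11.26 and 11.30 in KO-WT. WT-KO libraries gave 10.28, 10.26, 10.41, 10.21 and 10.27, and KO-KO libraries gave 10.61, 10.64, 10.52, 10.42 and 10.48. Both Lin28a-null groups lay below both intact groups, and KO-KO lay above WT-KO with no overlap. Lin28a loss lowered Mdm2 to 0.540-fold with Trim71 intact (log2 difference -0.89 ± 0.0621, adjusted p = 1.77e-08) and to 0.624-fold in Trim71-null cells (-0.68 ± 0.0621, adjusted p = 3.96e-07). All 4 same-day pairs fell in each case.

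Trim71 loss raised Mdm2 in Lin28a-null cells, by 0.25 ± 0.0574 (1.19-fold, adjusted p = 0.0152), in 5 of 5 same-day pairs. With Lin28a intact the difference was 0.04 ± 0.0671 (adjusted p = 0.753), with a 95% interval of -0.11 to 0.18. The test of the difference between these effects gave 0.21 ± 0.0883 (adjusted p = 0.298), so the effects were not shown to differ. The genes most like Mdm2 by the same measure were Abcb1b, Yeats2 and Ano3, with correlations of 0.938, 0.923 and 0.997 over the 8 Lin28a-intact libraries and 0.938, 0.933 and 0.911 over the 10 Lin28a-null ones.

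Among the 10 genes, 4 were called higher in KO-WT than in WT-WT and none lower: Bax, Bbc3, Phlda3 and Sesn2. Over all tested genes 11.2% were called (1674), 4.74% higher and 6.43% lower. The median log2 difference was 0.06 over the 10 genes and -0.0046 over all tested genes. In KO-KO against WT-KO, 4 of the 10 were again called higher and none lower, and these were Mdm2, Ccng1, Phlda3 and Zmat3. There 8.38% of all tested genes were called, 4.26% higher and 4.12% lower, and the medians were 0.15 for the 10 genes and -0.01 for all. Phlda3 was called in both Lin28a states. In refits that each left out 1 of the 18 libraries, the KO-WT calls held 14 times for Bax, 12 for Bbc3, 14 for Phlda3 and 7 for Sesn2, with none of the 10 genes called without WT-WT replicate 3, WT-WT replicate 4 or KO-WT replicate 3. The KO-KO calls held 15 times for Mdm2, 12 for Ccng1, 11 for Phlda3 and 8 for Zmat3, with none of the 10 called without KO-KO replicate 1 or 2. Clones E3 and C1 alone called none of the 10 in either comparison. Calls over all tested genes fell in the same refits: to as few as 528 in KO-WT against WT-WT (without WT-WT replicate 4), with drops of over 1.5 times also without WT-WT replicate 2 or 3 or KO-WT replicate 2 or 3, and to 10 in clones E3 and C1. In KO-KO against WT-KO the 1256 calls fell to as few as 676 (without WT-KO replicate 4), with such drops also without WT-KO replicate 1 or 5 or KO-KO replicate 1 or 2, and to 153 in clones E3 and C1.

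**Figure D2:**
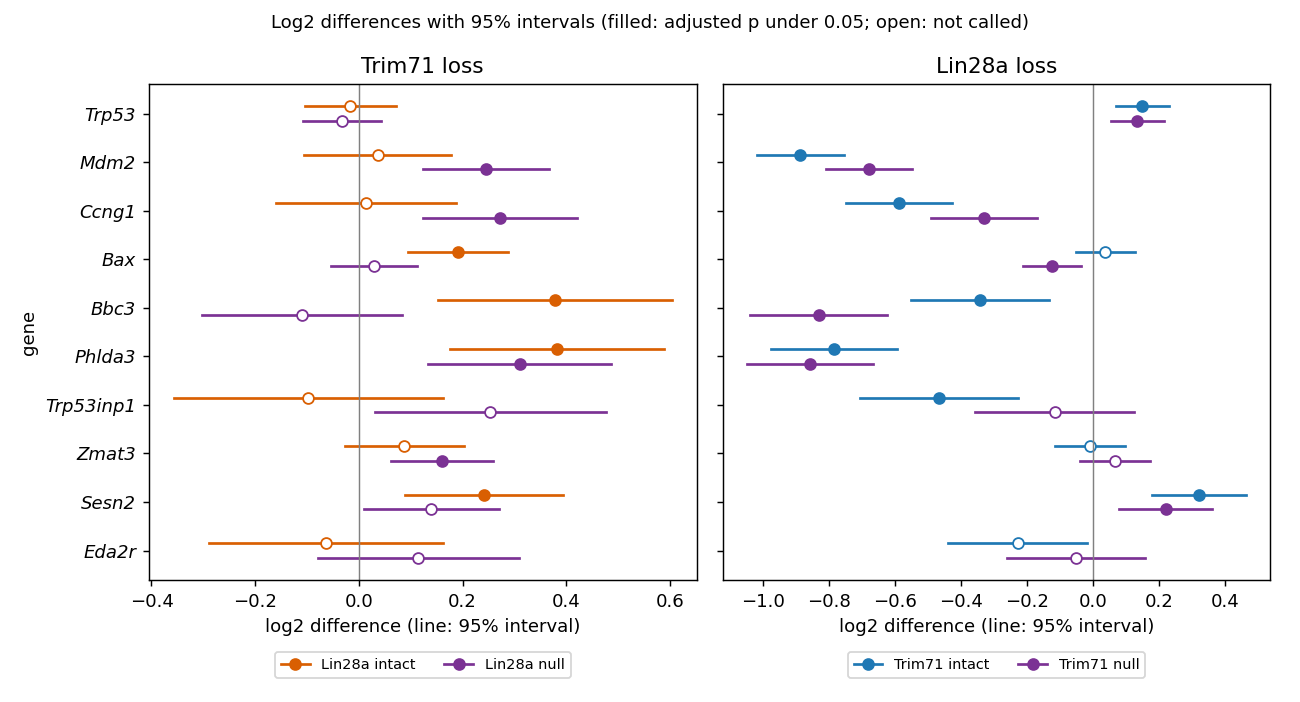
Log2 difference (x axis) of each gene (y axis) after Trim71 loss, left, and Lin28a loss, right, in each state of the other gene; lines are 95% intervals and filled points are called. After Trim71 loss Bax and Bbc3 differ by 0.19 and 0.38 with Lin28a intact and by 0.03 and -0.11 with Lin28a null, and the test between the states called neither.

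Phlda3 encodes a small protein that restrains AKT signalling. Its log2 values were 8.55, 8.40, 8.49 and 8.50 in WT-WT and 8.94, 8.82, 8.91 and 8.79 in KO-WT, with no overlap. They were 7.61, 7.47, 7.99, 7.63 and 7.78 in WT-KO and 8.02, 8.16, 7.85, 8.01 and 7.98 in KO-KO, where the groups overlapped through WT-KO replicate 3. Trim71 loss raised it by 0.38 ± 0.0973 (adjusted p = 0.0233, 3 of 3 same-day pairs) with Lin28a intact and by 0.31 ± 0.0833 (adjusted p = 0.0305, 4 of 5 pairs) in Lin28a-null cells. Lin28a loss lowered it by more, at -0.79 ± 0.09 (adjusted p = 4.62e-06) with Trim71 intact and -0.86 ± 0.09 (adjusted p = 1.86e-06) without. KO-KO cells stayed below WT-WT cells, by -0.48 ± 0.09 (adjusted p = 0.000505).

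Ccng1 encodes cyclin G1, an early p53 target that feeds back on Mdm2. It measured 11.42, 11.41, 11.73 and 11.47 in WT-WT, 11.52, 11.51, 11.41 and 11.65 in KO-WT, 10.89, 10.86, 11.02, 10.98 and 10.85 in WT-KO, and 11.31, 11.26, 11.20, 11.02 and 11.18 in KO-KO. The Lin28a-intact libraries were all above the Lin28a-null ones, and WT-KO and KO-KO met at 11.02. Lin28a loss lowered Ccng1 to 0.665-fold where Trim71 was intact (-0.59 ± 0.0761, adjusted p = 1.57e-05) and to 0.795-fold where it was not (-0.33 ± 0.0761, adjusted p = 0.00241). Trim71 loss raised it in Lin28a-null cells, by 0.27 ± 0.0704 (adjusted p = 0.0256) in 5 of 5 pairs, against 0.01 ± 0.0822 (adjusted p = 0.932) with Lin28a intact.

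Bbc3 and Bax belong to the cell death arm: Bbc3 encodes PUMA, a BH3-only protein that frees Bax to open the outer mitochondrial membrane. Bbc3 measured 7.82, 7.71, 7.75 and 7.62 in WT-WT and 7.96, 8.14, 8.20 and 8.11 in KO-WT, and the groups did not overlap. WT-KO libraries gave 7.27, 7.52, 7.61, 7.22 and 7.28, and KO-KO libraries 7.28, 7.27, 7.02, 7.31 and 7.47, with wide overlap. Trim71 loss raised Bbc3 by 0.38 ± 0.106 with Lin28a intact (1.30-fold, adjusted p = 0.034, 3 of 3 pairs) and moved it by -0.11 ± 0.0911 in Lin28a-null cells (adjusted p = 0.516). Bbc3 was lower after Lin28a loss, at -0.34 ± 0.0984 where Trim71 was intact (adjusted p = 0.0102) and -0.83 ± 0.0984 where it was not (adjusted p = 6.33e-06).

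Bax stayed within a narrow range. It measured 9.45, 9.40, 9.40 and 9.41 in WT-WT and 9.60, 9.63, 9.62 and 9.58 in KO-WT, so that the KO-WT libraries stood apart. WT-KO libraries gave 9.47, 9.50, 9.43, 9.38 and 9.49, and KO-KO libraries 9.43, 9.44, 9.50, 9.56 and 9.48. Trim71 loss with Lin28a intact raised Bax by 0.19 ± 0.0455 (1.14-fold, adjusted p = 0.0178), and KO-KO cells had less than KO-WT cells by -0.13 ± 0.0421 (adjusted p = 0.0243). Bax shares 192 exon bases on its own strand with Gm45808 in the reference annotation, so its level is uncertain where reads could be split between them. Neither Lin28a loss with Trim71 intact (0.04 ± 0.0421, adjusted p = 0.506) nor Trim71 loss in Lin28a-null cells (0.03 ± 0.0389, adjusted p = 0.714) was called.

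The genes that rose in KO-WT cells (Bbc3, Phlda3, Bax and Sesn2) were also those richest in GC. Across 14724 genes the rank correlation of transcript GC with the log2 difference was 0.515 for KO-WT against WT-WT, 0.009 for KO-KO against WT-KO and 0.247 for WT-KO against WT-WT; genes are not independent replicates. The transcripts of Bbc3 (65.2% GC), Bax (63.5%), Phlda3 (62.6%) and Sesn2 (58.7%) headed the 10, which ran down to 38.8% in Trp53inp1. After correction for GC and length none of the 4 was called: the KO-WT differences were 0.25 for Bbc3 (adjusted p = 0.084), 0.25 for Phlda3 (adjusted p = 0.102), 0.05 for Bax (adjusted p = 0.453) and 0.15 for Sesn2 (adjusted p = 0.139). Zmat3 was then called, at 0.19 (adjusted p = 0.0314). The decrease of Bax in KO-KO against KO-WT became 0.06 (adjusted p = 0.239). In KO-KO against WT-KO, Mdm2, Ccng1 and Phlda3 remained called after the correction, at 0.25, 0.29 and 0.36 (adjusted p = 0.00845, 0.0021 and 0.0066), Zmat3 was no longer called (0.14, adjusted p = 0.0571), and Trp53inp1 was (0.26, adjusted p = 0.038). The Lin28a loss calls of Mdm2, Phlda3, Ccng1, Bbc3, Sesn2 and Trp53 also held, as did that of Trp53inp1 with Trim71 intact (-0.35, adjusted p = 0.00263). In KO-KO against KO-WT, Trp53inp1 was called after the correction (-0.22, adjusted p = 0.0418). Over all tested genes the correction turned the balance of calls to 590 higher and 533 lower in KO-WT against WT-WT (711 and 963 without it) and to 3915 higher and 2840 lower in WT-KO against WT-WT (3049 and 3302 without it).

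**Figure D3:**
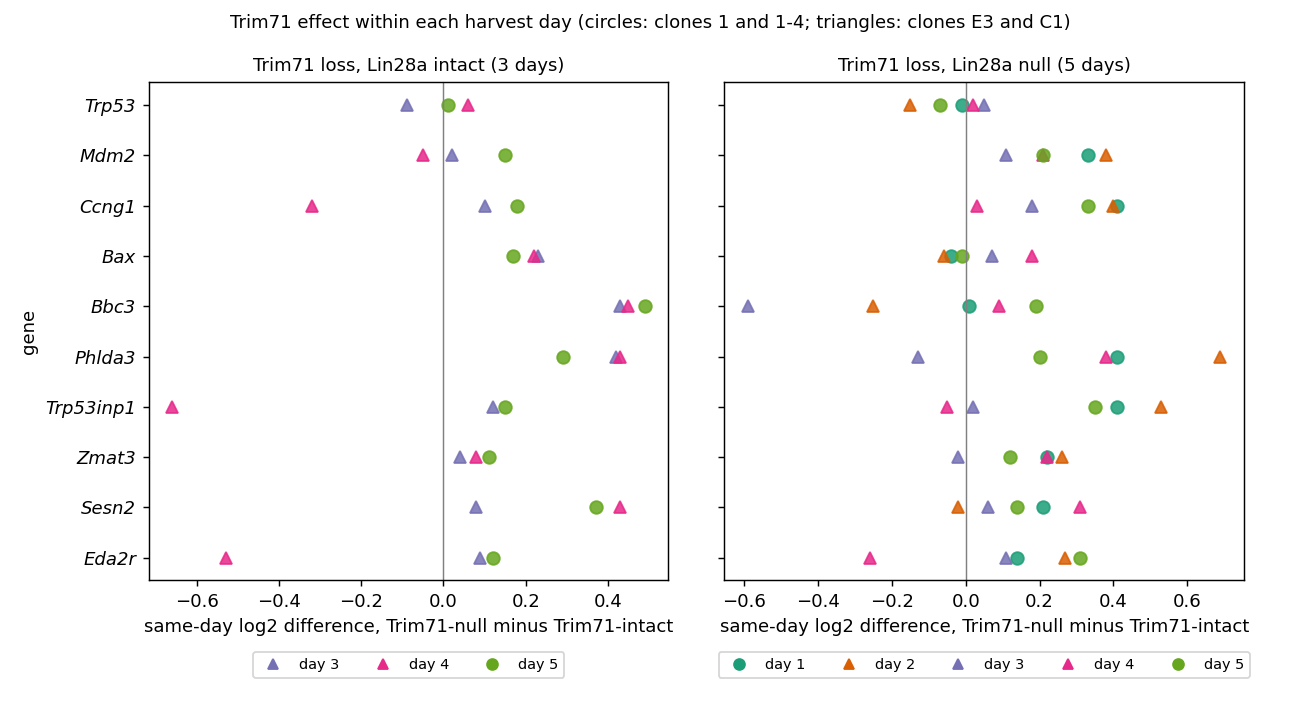
Log2 difference between the Trim71-null and Trim71-intact library collected on the same day (x axis) for each gene (y axis), with Lin28a intact, left, and null, right; colours are days and shapes are clone pairs. With Lin28a intact, the day 4 pair falls to -0.66 for Trp53inp1 and -0.53 for Eda2r, while the other pairs are above 0.

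Trp53inp1, Zmat3, Sesn2 and Eda2r encode, in order, a stress-induced nuclear protein that promotes p53 activity, a zinc finger RNA-binding protein, a sestrin that restrains mTORC1 under stress, and a receptor of the tumour necrosis factor family. Sesn2 measured 9.47, 9.55, 9.43 and 9.39 in WT-WT, 9.55, 9.63, 9.85 and 9.76 in KO-WT, 9.74, 9.93, 9.81, 9.64 and 9.78 in WT-KO, and 9.95, 9.91, 9.87, 9.94 and 9.93 in KO-KO. WT-WT libraries were below all Lin28a-null libraries and met KO-WT at 9.55. Sesn2 rose where Mdm2, Ccng1 and Phlda3 fell: in Lin28a-null cells it was 0.32 ± 0.0668 higher where Trim71 was intact (adjusted p = 0.00118) and 0.22 ± 0.0668 higher where it was not (adjusted p = 0.0147). Trim71 loss raised it by 0.24 ± 0.0721 (adjusted p = 0.043) with Lin28a intact and moved it by 0.14 ± 0.0618 (adjusted p = 0.186) in Lin28a-null cells. The former call was lost in 6 of those 12 settings, with adjusted p = 0.0565 without a filter and 0.0671 without the trend. KO-KO cells stood 0.46 ± 0.0668 above WT-WT cells (1.38-fold, adjusted p = 4.53e-05).

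Zmat3 ranged from 9.77 to 9.88 in WT-WT, 9.86 to 9.97 in KO-WT, 9.74 to 9.94 in WT-KO and 9.93 to 10.05 in KO-KO. Neighbouring groups overlapped, apart from KO-KO and WT-WT. Trim71 loss in Lin28a-null cells raised Zmat3 by 0.16 ± 0.0465 (adjusted p = 0.0421, 4 of 5 pairs), against 0.09 ± 0.0543 (adjusted p = 0.302) with Lin28a intact. The former call was lost in 8 of the 12 settings other than a left-out library, with adjusted p = 0.0612 without a filter, 0.0582 under 75th percentile scaling and 0.0717 without the trend. Lin28a loss moved it by -0.01 ± 0.0502 (adjusted p = 0.899) with Trim71 intact and by 0.06 ± 0.0502 (adjusted p = 0.322) without.

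Trp53inp1 measured 11.01, 10.95, 11.49 and 11.06 in WT-WT, 11.01, 11.07, 10.83 and 11.21 in KO-WT, 10.64, 10.53, 10.84, 10.73 and 10.55 in WT-KO, and 11.05, 11.06, 10.86, 10.68 and 10.91 in KO-KO. WT-WT replicate 3, at 11.49, stood apart from the rest of its group. Lin28a loss with Trim71 intact lowered the transcript by -0.47 ± 0.114 (0.723-fold, adjusted p = 0.00358), and by -0.31 (adjusted p = 0.0144) without WT-WT replicate 3. In Trim71-null cells the difference was -0.12 ± 0.114 (adjusted p = 0.429). Trim71 loss moved it by 0.25 ± 0.105 (adjusted p = 0.156) in Lin28a-null cells and by -0.10 ± 0.123 (adjusted p = 0.636) with Lin28a intact.

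Eda2r was called in none of the comparisons. It ranged from 8.12 to 8.52 in WT-WT, 7.99 to 8.35 in KO-WT, 7.86 to 8.18 in WT-KO and 7.92 to 8.22 in KO-KO. Its largest difference, -0.23 ± 0.0989 (adjusted p = 0.0717), was under Lin28a loss with Trim71 intact. It was -0.11 (adjusted p = 0.351) without WT-WT replicate 3, and it was called with only these genotypes in the fit (-0.21, adjusted p = 0.017) and without the day block (adjusted p = 0.0303). WT-WT replicate 3, from day 4, was the highest of its group in 5 of the 10 genes (Mdm2, Ccng1, Trp53inp1, Zmat3 and Eda2r). None of the genes called in KO-WT against WT-WT (Bax, Bbc3, Phlda3 and Sesn2) was among these 5. Without WT-WT replicate 3, none of the 10 genes was called in that comparison, and calls over all tested genes fell from 1674 to 602. None of the 10 was called without WT-WT replicate 4 or KO-WT replicate 3 either.

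Lin28a loss called 7 of the 10 genes in each state of Trim71. In WT-KO against WT-WT, 5 were lower (Mdm2, Phlda3, Ccng1, Trp53inp1 and Bbc3) and 2 higher (Sesn2 and Trp53), where 42.4% of all tested genes were called, 20.3% higher and 22.0% lower. In KO-KO against KO-WT, 5 were lower (Phlda3, Bbc3, Mdm2, Ccng1 and Bax) and 2 higher (Sesn2 and Trp53), where 42.8% were called, 20.8% higher and 22.0% lower. Median differences of the 10 genes were -0.29 and -0.12, against -0.0077 and -0.0008 over all tested genes. These comparisons do not share libraries with each other, but each shares libraries with the Trim71 comparisons.

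With both genes lost, Mdm2 (-0.64 ± 0.0621), Phlda3 (-0.48 ± 0.09), Bbc3 (-0.45 ± 0.0984) and Ccng1 (-0.32 ± 0.0761) were lower in KO-KO than in WT-WT. Sesn2 (0.46 ± 0.0668), Zmat3 (0.15 ± 0.0502) and Trp53 (0.12 ± 0.0385) were higher. Thus 7 of 10 were called, where 45.6% of all tested genes were, 21.0% higher and 24.6% lower.

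The test of whether the Trim71 effect differed between the Lin28a states called none of the 10 genes, and 0.0200% of all tested genes. At an unadjusted p under 0.05 there were 5 of the 10 (Bbc3, Bax, Ccng1, Mdm2 and Trp53inp1), against 15.1% of all. The largest was Bbc3, at -0.49 ± 0.14 (adjusted p = 0.21). A fit without the day block gave Bbc3 an adjusted p of 0.0314, with degrees of freedom that the removal of day effects had used up. That fit called 673 of all tested genes, against 3 with the day block.

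Markers of differentiated cells moved with the Lin28a state. The log2 of the summed level of 8 trophectoderm markers was 12.06 to 12.48 in WT-WT, 12.06 to 12.37 in KO-WT, 10.08 to 10.36 in WT-KO and 9.91 to 10.23 in KO-KO. Of these, Krt8 averaged 10.97 in Lin28a-intact and 6.88 in Lin28a-null libraries, Krt18 10.78 and 6.67, Hand1 6.64 and 3.81, and Gata3 5.56 and 4.09. Tfap2c averaged 9.69 and 9.71 and Eomes 5.43 and 5.50, while Elf5 (0.77 to 1.02) and Cdx2 (1.94 to 3.13) were low throughout. After Lin28a loss with Trim71 intact, 4 of the 6 tested were lower and none higher. In that comparison, which also gave the counts for the marker lists below, 20.3% of all tested genes were higher and 22.0% lower. The sum over 7 primitive endoderm markers was 8.03 to 8.50 in WT-WT, 8.31 to 8.89 in KO-WT, 6.33 to 6.70 in WT-KO and 6.52 to 7.02 in KO-KO, and 5 of the 5 tested were lower. For the 5 of 10 fibroblast markers in the table, the sums were 7.28 to 7.44, 7.32 to 7.48, 6.65 to 6.80 and 6.77 to 6.97 in the same order, and 3 of the 5 were lower. Pdgfra, which averaged 5.28 in Lin28a-intact and 3.81 in Lin28a-null libraries, stands in both this list and the primitive endoderm list. Col1a1 averaged 5.29 and 4.40, Col1a2 4.50 and 2.87, Twist1 4.94 and 4.83, and Thy1 5.13 and 5.33. The sums of 9 germ-layer markers were 8.94 to 9.27, 8.82 to 8.97, 9.33 to 9.67 and 9.34 to 9.43, of which 2 of the 5 tested were higher and 1 lower; Tubb3 averaged 7.93 in Lin28a-intact and 8.88 in Lin28a-null libraries, and Nes 7.26 and 6.88. The 7 stem cell markers gave 14.15 to 14.24, 14.24 to 14.28, 14.50 to 14.61 and 14.49 to 14.59, and 5 of the 7 were higher and 1 lower. In KO-KO against KO-WT 2 of the 7 were higher and 2 lower, where 20.8% and 22.0% of all tested genes were. Nanog averaged 12.25 in Lin28a-intact and 13.16 in Lin28a-null libraries, Fut9 7.45 and 7.94, Pou5f1 12.72 and 12.83, and Sox2 11.55 and 11.62. Zfp42 averaged 9.28 and 9.31, Utf1 11.23 and 11.20, and Dppa4 10.33 and 10.19. In bulk RNA, fewer cells of a type and less RNA per cell cannot be told apart. The part of such cells in the lower Mdm2, Phlda3, Ccng1, Bbc3 and Trp53inp1 of Lin28a-null libraries was not tested.

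A further 80 genes of the p53 pathway were read from 7 lists drawn from general knowledge, with earlier results of these data known. Of these genes, 79 were in the table and 76 were tested. Of the 76, 13 were higher and 1 lower in KO-WT against WT-WT, and 16 higher and 1 lower in KO-KO against WT-KO. The shares over all tested genes were 4.74% higher and 6.43% lower in the first comparison and 4.26% and 4.12% in the second. Median differences of the 76 were 0.03 and 0.08. These counts, and the values of pathway genes below, come from the fit without correction for GC and length. Across genes, the rank correlation of transcript GC with the KO-WT difference was 0.515. After Lin28a loss 13 were higher and 33 lower with Trim71 intact (median -0.12), and 13 higher and 28 lower in Trim71-null cells (median -0.07). Over all tested genes 20.3% were higher and 22.0% lower in the former and 20.8% and 22.0% in the latter. KO-KO against WT-WT gave 15 higher and 24 lower, against 21.0% and 24.6% of all, and the test of the difference between Trim71 effects called none. With 1 library left out, the genes called higher numbered 6 to 14 in KO-WT against WT-WT, with falls of over 1.5 times without WT-WT replicate 2, 3 or 4 or KO-WT replicate 3 or 4. They numbered 8 to 22 in KO-KO against WT-KO, with such falls without WT-KO replicate 1, 4 or 5 or KO-KO replicate 1 or 2. Clones E3 and C1 alone gave 0 higher in KO-WT against WT-WT and 3 in KO-KO against WT-KO.

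**Figure D4:**
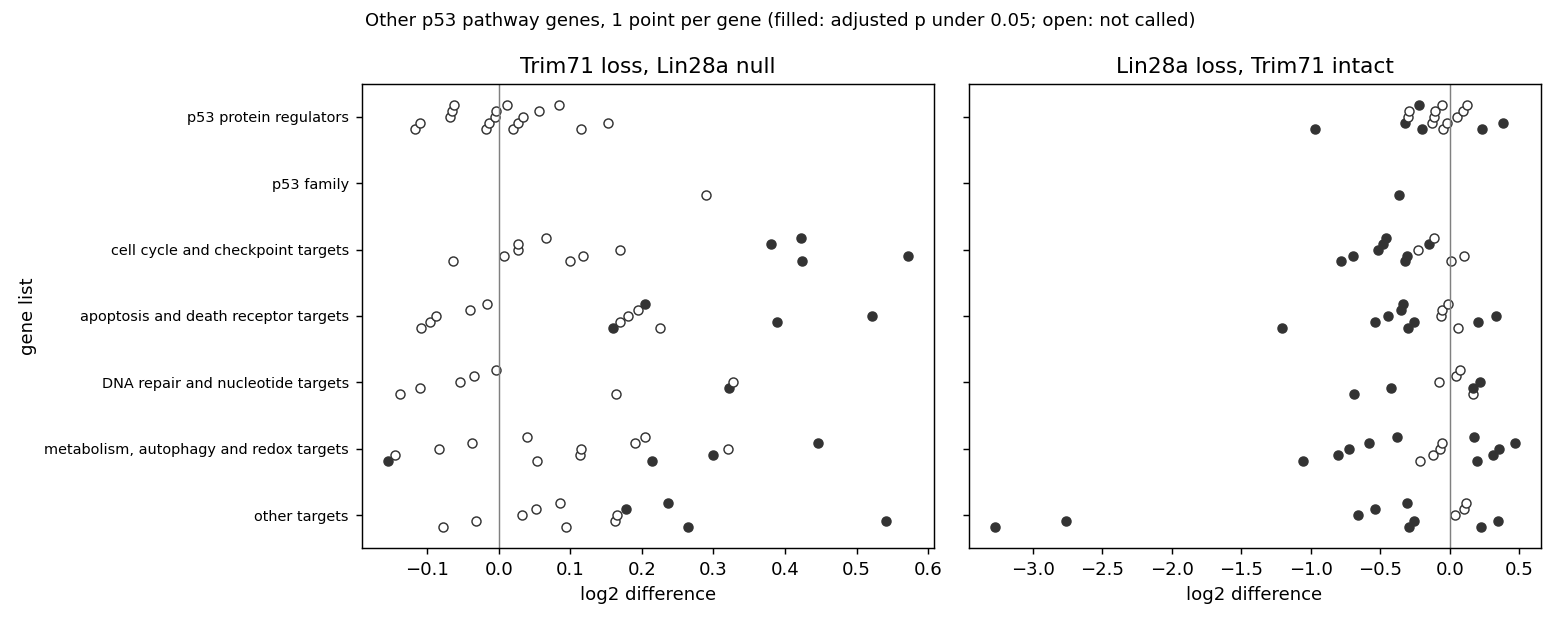
Log2 difference (x axis) of each tested gene of the other p53 pathway lists (y axis) after Trim71 loss in Lin28a-null cells, left, and Lin28a loss with Trim71 intact, right; each point is 1 gene, filled where called. Of 76 genes, 16 were called higher and 1 lower on the left, and 13 higher and 33 lower on the right.

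Cell cycle and checkpoint targets rose in 4 of 12 genes and fell in none after Trim71 loss, in each Lin28a state, where 4.74% (Lin28a intact) and 4.26% (Lin28a null) of all tested genes were higher. Btg2, an antiproliferative cofactor of mRNA deadenylation, rose by 0.50 ± 0.091 (adjusted p = 0.0042) with Lin28a intact and by 0.57 ± 0.0779 (adjusted p = 0.000351) in Lin28a-null cells. Sfn, the checkpoint protein 14-3-3 sigma, rose by 0.49 ± 0.0657 (adjusted p = 0.00053) with Lin28a intact and by 0.42 ± 0.0562 (adjusted p = 0.000277) in Lin28a-null cells. Cdkn1a, the cyclin-dependent kinase inhibitor p21, rose by 0.40 ± 0.0889 (adjusted p = 0.0123) with Lin28a intact and by 0.38 ± 0.0761 (adjusted p = 0.00571) in Lin28a-null cells. After Lin28a loss 8 of the 12 fell with Trim71 intact and 9 of 12 without, and none rose, where 22.0% of all tested genes fell in each case. Of all tested genes 20.3% and 20.8% rose in these comparisons.

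Apoptosis and death receptor targets rose in 4 of 13 genes and fell in none after Trim71 loss in each Lin28a state, against the same 4.74% and 4.26% of all tested genes. Perp, a desmosomal membrane protein, rose by 0.52 ± 0.0613 (adjusted p = 0.000103) in KO-KO against WT-KO and by 0.38 ± 0.0716 (adjusted p = 0.00549) in KO-WT against WT-WT. After Lin28a loss 2 of the 13 rose and 7 fell with Trim71 intact (20.3% and 22.0% of all tested genes), and Perp fell by -1.20 ± 0.0662 (adjusted p = 1.19e-09). In Trim71-null cells 2 rose and 5 fell (20.8% and 22.0% of all tested genes), with Perp at -1.06 ± 0.0662 (adjusted p = 5.89e-09). Of the 13, 4 rose and 4 fell in KO-KO against WT-WT (21.0% and 24.6% of all tested genes), where the death agonist Bid was 0.36 ± 0.0505 higher (adjusted p = 2.91e-05).

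Metabolism, autophagy and redox targets gave 2 higher and 0 lower of 14 in KO-WT against WT-WT, where 4.74% of all tested genes were higher and 6.43% lower, with Dcxr, a carbonyl reductase, at 0.40 ± 0.118 (adjusted p = 0.0389). In KO-KO against WT-KO, where 4.26% of all were higher and 4.12% lower, 3 were higher, with the peptide transporter Tap1 at 0.45 ± 0.115 (adjusted p = 0.0246), and 1 lower, the autophagy kinase Ulk1, at -0.16 ± 0.0402 (adjusted p = 0.0254). Lin28a loss with Trim71 intact raised 5 and lowered 5, against 20.3% and 22.0% of all tested genes. Ulk1 rose by 0.47 ± 0.0434 (adjusted p = 5.26e-07) and Tigar, a regulator of glycolysis, by 0.35 ± 0.0386 (adjusted p = 2.96e-06). Dram1, an autophagy modulator, fell by -1.06 ± 0.165 (adjusted p = 0.000103) from a low level of 3.66 in WT-WT. In Trim71-null cells 3 rose and 4 fell, against 20.8% and 22.0% of all tested genes.

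Among the remaining targets, Thbs1, which encodes the matrix protein thrombospondin 1, fell by -2.76 ± 0.155 (adjusted p = 1.57e-09) after Lin28a loss with Trim71 intact, from 7.57 ± 0.202 (SD, n = 4) to 4.81 ± 0.191 (SD, n = 5). In KO-KO against WT-KO Thbs1 rose by 0.54 ± 0.144 (adjusted p = 0.0289). Of this list 1 of 12 rose in KO-WT against WT-WT and 4 in KO-KO against WT-KO (4.74% and 4.26% of all tested genes). Over all tested genes 20.3% and 20.8% rose after Lin28a loss with Trim71 intact and without, and 22.0% fell in each case. Of the list, 2 rose and 7 fell with Trim71 intact and 3 rose and 7 fell without. Bcl6, a transcriptional repressor, was among those that rose, by 0.35 ± 0.102 (adjusted p = 0.0118) and 0.46 ± 0.102 (adjusted p = 0.0018).

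Of the genes that act on the p53 protein, 1 of 17 was higher and 1 lower in KO-WT against WT-WT, where 11.2% of all tested genes were called. The lower was the checkpoint kinase gene Chek1, at -0.37 ± 0.0778 (adjusted p = 0.0103). None of the 17 was called in KO-KO against WT-KO, where 8.38% of all were. Lin28a loss with Trim71 intact raised 2, among them the p53 kinase gene Hipk2 at 0.38 ± 0.085 (adjusted p = 0.00194), and lowered 4, where 42.4% of all tested genes were called. In Trim71-null cells 3 rose, among them the acetyltransferase gene Ep300 at 0.39 ± 0.0819 (adjusted p = 0.00124), and 3 fell, where 42.8% of all were called. Cdkn2a, whose locus encodes the Mdm2 inhibitor ARF and the kinase inhibitor p16, was lower by -1.14 ± 0.075 (adjusted p = 1.01e-08), and its transcripts cannot be separated by gene symbol. DNA repair and nucleotide targets gave 1 higher of 8 in each Trim71 comparison and 2 higher in each Lin28a comparison, with 2 lower where Trim71 was intact and 1 lower where it was not. Over all tested genes 4.74% and 4.26% were higher after Trim71 loss and 20.3% and 20.8% after Lin28a loss, and 22.0% were lower in each Lin28a comparison. Rrm2b, a ribonucleotide reductase subunit, rose by 0.41 ± 0.128 (adjusted p = 0.0168) in KO-KO against KO-WT.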

How the data were processed

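Expression was read from 1 table that the authors deposited. Its values are log2 expression, as read from the values themselves: they ran from -0.712 to 16.3, and library sums of 2 to the power of the value lay between 7297919 and 7677445. These deposited values give no read depth, so no counting interval is given. The submitters' processing notes name CASAVA 1.8, STAR and DESeq2 without a role; build, annotation and counting are not given in the sources used here. Day effects had been removed: no gene had a day term above 8.18e-09, and shuffling days within genotype brought terms of up to 1.33. Days come from the labels and pair the libraries.

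Genes at or above 10 linear units in at least 4 libraries were tested with limma 3.58.1 in R 4.3.3 (eBayes with trend) on genotype and day over 18 libraries, with 10 residual degrees of freedom and Benjamini-Hochberg adjustment. Intervals are 95% intervals of the fit. The script was tested on simulated data. The 10 genes and the lists were chosen with earlier results of these data known. Beyond the 10 genes, up to 4 higher and 4 lower called pathway genes per comparison could be named, by absolute difference; 1 gene that this rule names is not reported here. GC content and length came from GENCODE M21 transcripts. Alternatives were left-out libraries, clone pairs, days, filters, scaling, a GC and length correction, no day block and no trend. Ppm1d stands in 2 pathway lists and was counted once in the total.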

Additional observations from a re-analysis of the deposited data

Results flagged for a closer look

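KO-KO replicate 4 had the lowest Eda2r value of its group, 7.92, with the nearest library at 8.17. The gap was 0.816 of the group's whole range, above Dixon's 95% critical value for 5 samples. Of 40 groups of values examined (10 genes in 4 genotypes) 1 was singled out in this way, and chance singles out about 1 in 20.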

How the results depend on the processing

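Each comparison was refitted with 1 of 18 libraries left out and under up to 12 further settings. Over 870 such refits of the 29 called values of the 10 genes, 751 kept direction and call, 118 kept direction without the call and 1 reversed. Over 920 refits of the uncalled values, 13 were called and 44 had the other sign. The cause of these shifts was not tested, except that subsets hold fewer libraries: residual degrees of freedom were 10 in all, 5 in clones E3 and C1, 2 in clones 1 and 1-4, and 6 on days that held all 4 genotypes.

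For KO-WT against WT-WT, the number called, 4 in the main fit, became 0 in clones E3 and C1 alone, 1 in clones 1 and 1-4 alone, 0 with only the genotypes compared, 1 in the days with all 4 genotypes and 1 after the GC and length correction, and ranged from 0 to 4 with 1 library left out (0 without WT-WT replicate 3, WT-WT replicate 4 or KO-WT replicate 3, 1 without KO-WT replicate 2, and 2 without WT-WT replicate 2 or KO-WT replicate 4). The 1 call after the correction was Zmat3, which was not among the 4 of the main fit. For KO-KO against WT-KO, the 4 calls became 0 in clones E3 and C1, 2 with only the genotypes compared, 0 on days that held all 4 genotypes, and 0 to 5 with 1 library left out (0 without KO-KO replicate 1 or 2, 1 without WT-KO replicate 1, 2 or 4, and 2 without WT-KO replicate 5 or KO-KO replicate 4). Clones E3 and C1 alone gave 4 calls in place of 7 in each of WT-KO against WT-WT, KO-KO against KO-WT and KO-KO against WT-WT. With no replicate block (no day term) the interaction called 1 gene, Bbc3. Mdm2 was called in all 18 left-out fits and all 12 other settings of the 3 comparisons between Lin28a states, as were Ccng1 and Phlda3, except that Phlda3 in KO-KO against WT-WT lost its call in clones E3 and C1 (-0.43, adjusted p = 0.0599).

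Sign changes were as follows. Under the GC and length correction: Bax KO-KO against KO-WT 0.0555 (adjusted p = 0.239), Trp53inp1 0.1309 and Eda2r 0.1167 in KO-WT against WT-WT, Zmat3 0.0300 in WT-KO against WT-WT and -0.0272 in KO-KO against KO-WT, Eda2r 0.0095 in KO-KO against WT-WT, and, in the interaction, Trp53 0.0387, Bax 0.0420, Phlda3 0.1078 and Zmat3 -0.0572. In clones E3 and C1, KO-WT against WT-WT: Mdm2 -0.0455 and Ccng1 -0.0998. In clones 1 and 1-4: Trp53inp1 0.2065 and Eda2r 0.2026 in KO-WT against WT-WT, Bax -0.0215 and Bbc3 0.0993 in KO-KO against WT-KO, Zmat3 0.0073 in WT-KO against WT-WT, Eda2r 0.0193 in KO-KO against WT-WT and Phlda3 0.0518 in the interaction. Ccng1 in KO-WT against WT-WT was -0.0145 with only the genotypes compared and -0.0145 on days that held all 4 genotypes, where the Trp53 interaction was 0.0054. Under 75th percentile scaling Trp53 was 0.0003 in KO-WT against WT-WT and Zmat3 0.0095 in WT-KO against WT-WT. With 1 library left out, sign changes of uncalled values lay within these ranges: KO-WT against WT-WT, Trp53 -0.0386 to 0.0004, Mdm2 -0.0087 to 0.1040, Ccng1 -0.0490 to 0.1234, Trp53inp1 -0.1868 to 0.0784 and Eda2r -0.1413 to 0.0651; WT-KO against WT-WT, Zmat3 -0.0540 to 0.0208; KO-KO against KO-WT, Eda2r -0.1430 to 0.0273; KO-KO against WT-WT, Eda2r -0.1813 to 0.0031; interaction, Trp53 -0.0325 to 0.0129 and Phlda3 -0.1568 to 0.0254.

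The GC and length correction also turned KO-KO against WT-WT to 3952 genes higher and 2977 lower, from 3143 and 3691.

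Depth is unknown, so counting error at the lower levels, such as those of Bbc3 and Eda2r, could not be set apart from the spread between libraries.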
